A study of Rattus norvegicus with 12 samples.

Results

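The nuclear-encoded subunits of the respiratory chain were compared between liver of female and male obese ZSF1 rats. They were taken as every gene row whose symbol follows the naming of complex I (Nduf), complex II (Sdh), complex III (Uqcr), complex IV (Cox4 to Cox8) or complex V (Atp5), which gave 77 of 16478 rows. All 12 animals were ZSF1 rats of the obese phenotype, 16 weeks old and untreated, and 6 were female and 6 male. Obese ZSF1 rats carry a defective leptin receptor gene from each parent, so both groups share that defect, and lean animals were not analysed here. Values are CPM, read counts scaled to a common library size, in bulk liver RNA, in which fewer cells of a type and less RNA per cell cannot be told apart.

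The respiratory chain sits in the inner mitochondrial membrane. Complexes I and II pass electrons from NADH and succinate to ubiquinone, complex III hands them to cytochrome c, and complex IV reduces oxygen. Complexes I, III and IV pump protons, and complex V, the ATP synthase, uses the gradient to make ATP. In liver this supplies the energy for glucose and urea synthesis and takes up the electrons of fatty acid oxidation. A few central subunits of complexes I, III, IV and V are encoded in mitochondrial DNA, and none of the symbols searched for them matched a row, so only the nuclear share is described.

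By complex, the 77 rows held 33 genes of complex I, 4 of complex II, 7 of complex III, 16 of complex IV and 14 of complex V. Ndufa4 was counted with complex IV, the enzyme it belongs to in spite of its symbol. A further 3 rows match the naming but are no subunits: Cox7a2l, which helps join complexes into supercomplexes, and Atp5s and Atp5sl, now named Dmac2l and Dmac2. Of the 77, 70 had enough reads to be tested, and the other 7 are given with their complexes.

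In each of the 5 complexes transcripts of at least 2 members were higher in males, by margins of at most 1.56-fold. Of the 70 tested members, 61 were called higher in males and 0 in females (edgeR quasi-likelihood test, adjusted p under 0.05), where over all 9943 tested genes 22.7% were called higher in males and 20.5% in females. Of the 9 members not called, 8 also had a higher male mean. In 54 members every male lay above every female, against 12.8% of all tested genes. The median log2 fold change of females over males was -0.37 over the 70 members, a male level 1.29 times the female one, and -0.01 over all tested genes. Together the 77 members took 0.854% to 1.00% of a female library's counts and 1.03% to 1.15% of a male library's, with no overlap.

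**Figure D1:**
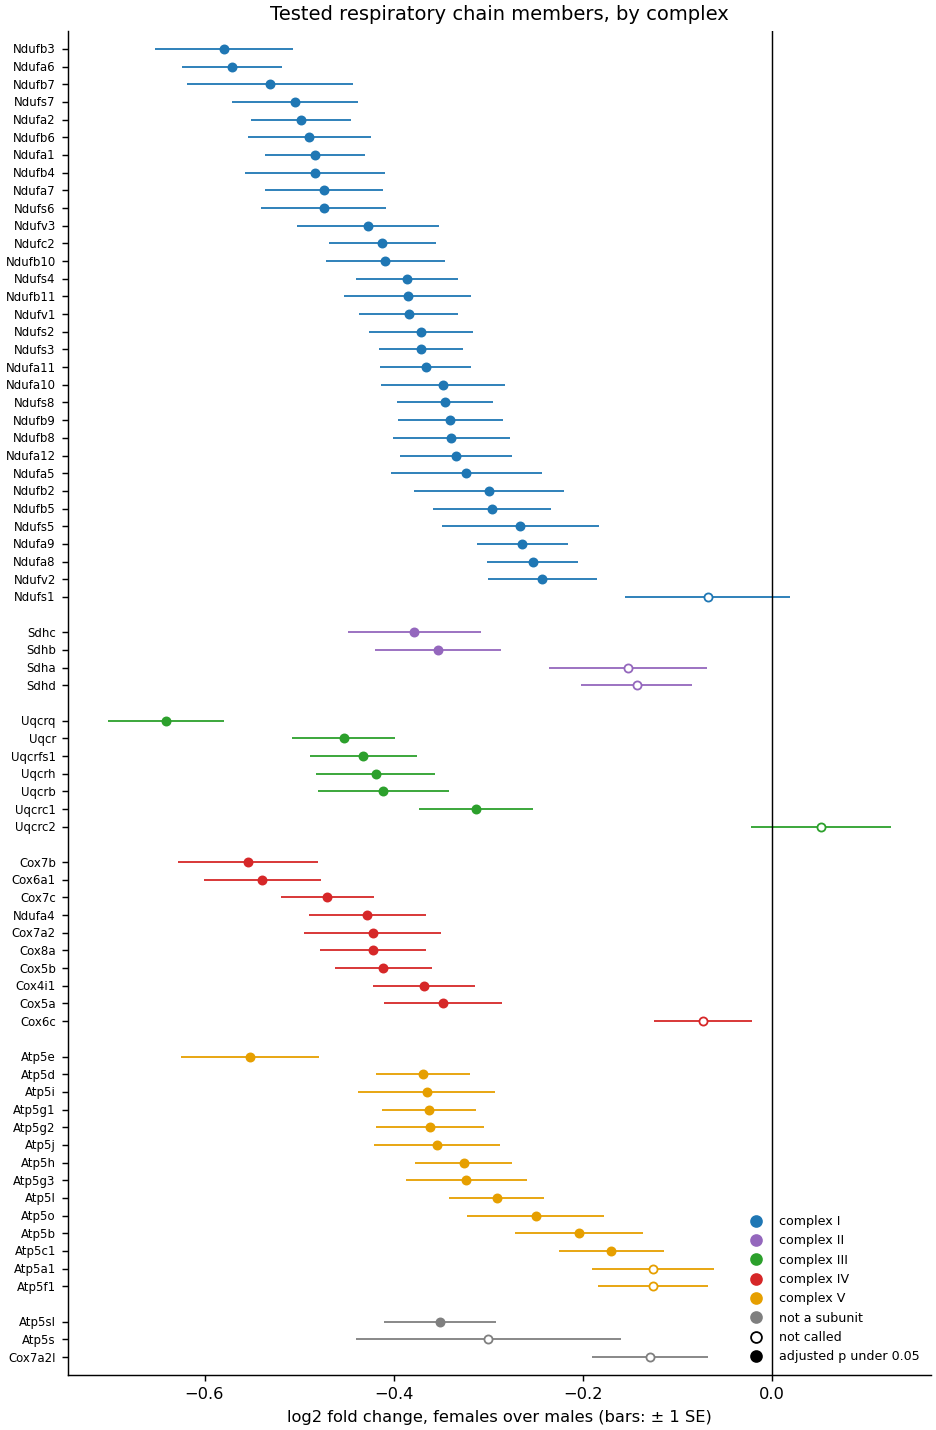
Log2 fold change of females over males (x axis) for each of the 70 tested members, grouped by complex, with bars of 1 SE; filled points passed an adjusted p of 0.05 and open points did not. All filled points lie below 0, between -0.64 for Uqcrq and -0.17 for Atp5c1, and Uqcrc2, at 0.05, is the one member above 0.

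Each male had a higher median over the members than each female. Measured as the median deviation of log2 CPM from the mean over the 12 animals, females lay between -0.25 (female 12) and -0.08 (female 9) and males between 0.145 (male 6) and 0.21 (male 1). The sexes were separate in the same way for each of the 5 complexes. Female 9, the library with the fewest counts, was the female nearest to the males in every complex. Female 12 was the lowest animal in every complex. Complex II lay closest together, with females between -0.26 and -0.01 and males between 0.05 and 0.16, male 4 being the lowest male.

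**Figure D2:**
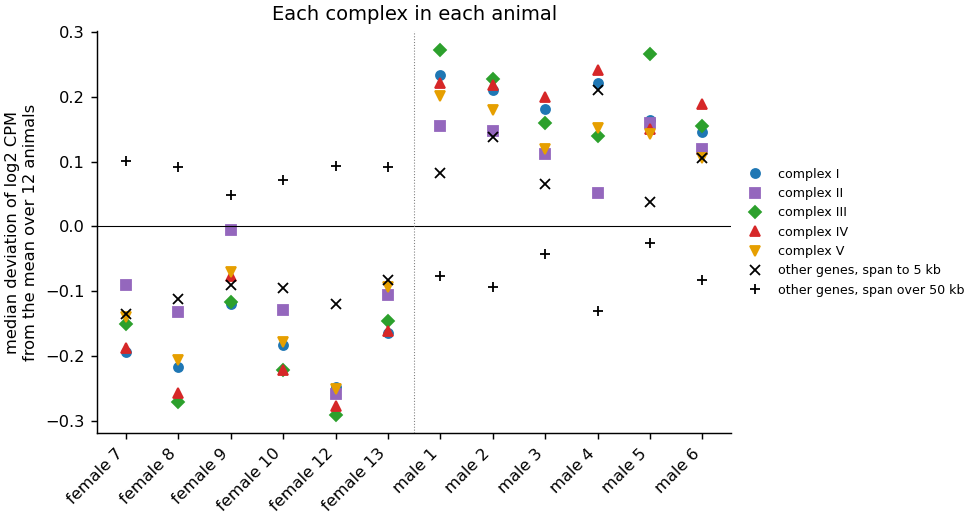
Median deviation of log2 CPM from the mean over the 12 animals (y axis) for complexes I to V in each animal (x axis), with other genes of short and long genomic span as crosses. Every complex is above 0 in all 6 males and below 0 in all 6 females; other genes with a span of up to 5 kb lie on the same side as the complexes and those over 50 kb on the opposite side.

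Letters of factor binding sites were looked for in the promoters of the members, since many respiratory genes are known targets of NRF1, GABP and estrogen-related receptors. The RefSeq windows (assembly GRCr8) reach from 250 bases before to 50 after the gene start, and both strands were searched. The NRF1 core GCGCANGCG stood in 18 of 65 member promoters (27.7%), in 13.6% of 7997 promoters of tested genes and in 6.26% of all 27457. The ETS letters CCGGAAG stood in 19 (29.2%), against 18.7% and 9.22%, and the estrogen-related receptor letters AAGGTCA in 11 (16.9%), against 2.86% and 4.37%. The SP1 letters GGGCGG stood in 28 (43.1%), against 62.2% and 34.9%. A match is a description of letters and not a measured site.

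The upstream 250 bases of 5 members are shown because they set the members with the largest difference in complexes III, I and V among those with a match beside members that were not called. Capitals mark NRF1 core, ETS and estrogen-related receptor letters on either strand. Ndufb3, Sdhc and Cox7b, with the largest differences in complexes I, II and IV, held 0 such matches in their upstream 250 bases. Uqcrq (chr10:38089979-38090228, minus strand), Ndufa6 (chr7:115750318-115750567, minus strand) and Atp5e (chr3:183680173-183680422, minus strand) differed by -0.64, -0.57 and -0.55. Uqcrc2 (chr1:184598990-184599239, plus strand) and Sdha (chr1:30764303-30764552, plus strand) were at 0.05 and -0.15.
Uqcrq: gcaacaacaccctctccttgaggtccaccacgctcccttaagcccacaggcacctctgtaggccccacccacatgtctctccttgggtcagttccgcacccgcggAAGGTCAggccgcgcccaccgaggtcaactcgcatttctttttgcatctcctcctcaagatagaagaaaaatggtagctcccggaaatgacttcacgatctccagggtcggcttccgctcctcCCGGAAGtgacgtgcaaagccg
Ndufa6: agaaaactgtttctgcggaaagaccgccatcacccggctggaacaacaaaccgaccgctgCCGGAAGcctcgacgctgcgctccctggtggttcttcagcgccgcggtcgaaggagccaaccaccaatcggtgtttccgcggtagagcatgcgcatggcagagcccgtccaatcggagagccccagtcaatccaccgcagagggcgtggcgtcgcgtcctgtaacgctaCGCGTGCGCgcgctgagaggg
Atp5e: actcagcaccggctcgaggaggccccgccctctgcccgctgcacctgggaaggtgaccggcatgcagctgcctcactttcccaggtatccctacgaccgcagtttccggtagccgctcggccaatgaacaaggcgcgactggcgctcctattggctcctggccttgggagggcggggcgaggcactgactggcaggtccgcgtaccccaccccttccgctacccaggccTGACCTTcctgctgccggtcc
Uqcrc2: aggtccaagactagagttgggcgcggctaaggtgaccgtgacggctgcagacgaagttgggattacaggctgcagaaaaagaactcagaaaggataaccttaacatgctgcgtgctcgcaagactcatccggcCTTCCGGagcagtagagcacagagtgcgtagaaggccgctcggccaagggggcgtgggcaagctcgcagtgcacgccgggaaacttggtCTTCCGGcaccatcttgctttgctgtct
Sdha: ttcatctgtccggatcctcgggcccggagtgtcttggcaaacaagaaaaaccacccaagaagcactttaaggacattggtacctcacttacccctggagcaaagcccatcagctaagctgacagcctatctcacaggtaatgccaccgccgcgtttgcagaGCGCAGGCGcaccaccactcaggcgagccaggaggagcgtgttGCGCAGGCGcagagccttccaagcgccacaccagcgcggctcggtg

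Uqcrq held ETS letters from 22 to 16 bases and receptor letters from 145 to 139 bases before the start, Ndufa6 the NRF1 core from 21 to 13 bases and ETS letters from 190 to 184, and Atp5e receptor letters from 21 to 15 bases. The members that were not called held such letters too: Uqcrc2 has ETS letters from 117 to 111 and from 28 to 22 bases, and Sdha the NRF1 core from 89 to 81 and from 46 to 38 bases. Over the 61 tested members with a promoter, those with the NRF1 core had a median log2 fold change of -0.33 (18 members) and those without it -0.38 (43). With and without ETS letters the medians were -0.37 and -0.365, with and without receptor letters -0.32 and -0.37, and with and without SP1 letters -0.37 and -0.36. These differences were not tested.

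Complex I, the NADH dehydrogenase, had 31 of 32 tested members called higher in males (median log2 fold change -0.38). It is built from a core that carries the electron path and a shell of accessory subunits. All 25 tested accessory members were called (median -0.39, from -0.58 to -0.25), and 6 of 7 core members (median -0.37, from -0.50 to -0.07). Split by symbol, 10 of 10 Ndufa members, 10 of 10 Ndufb members, 7 of 8 Ndufs members and 3 of 3 Ndufv members were called.

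Ndufb3, an accessory subunit of the membrane arm, had the largest difference in the complex. It stood at 25.8 (lowest), 27.2 (median) and 35.5 CPM (highest) in females and at 40.1, 43.1 and 44.5 CPM in males. The sexes did not overlap, although female 9 stood above the other females, and the log2 fold change was -0.58 (SE 0.07, adjusted p = 2.38e-05). Ndufa6, an accessory subunit at the peripheral arm, had female levels of 94.9 to 107 CPM (median 99.9) and male levels of 141 to 160 CPM (median 150), a 1.485-fold difference (SE 0.05 on the log2 scale, adjusted p = 1.10e-06). Here all 6 males lay well above all 6 females. Ndufb7, an accessory subunit facing the intermembrane space, lay at 37.0 to 50.5 CPM among females and at 54.9 to 77.0 CPM among males, 1.445-fold higher (adjusted p = 0.000235), with male 4 the highest.

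Among core subunits the largest difference was in Ndufs7, which holds the iron-sulfur cluster next to the ubiquinone site. Its levels were 35.7, 43.6 and 47.9 CPM (lowest, median, highest) in females and 57.8, 61.1 and 64.7 CPM in males, 1.42-fold higher in males (log2 -0.50, SE 0.07, adjusted p = 3.55e-05). Ndufs1, the largest core subunit and carrier of several iron-sulfur clusters, was the tested member of complex I that was not called. It spanned 154 to 180 CPM in the 6 females (median 163) and 127.9 to 192.5 CPM in the 6 males (median 174.5), with a log2 fold change of -0.07 (SE 0.09, adjusted p = 0.56). Male 4, at 128 CPM, was the lowest of all 12 animals, while the other males lay between 171.8 and 192.5 CPM. Without male 4 the log2 fold change was -0.13 and the adjusted p 0.0859.

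The smallest called differences in complex I were in Ndufv2, a core subunit of the NADH-oxidizing head (log2 -0.24, adjusted p = 0.00354), and in the accessory subunits Ndufa8 (-0.25), Ndufa9 (-0.26) and Ndufs5 (-0.27, adjusted p = 0.0176). The Ndufs5 call was lost without male 4 and female 12 together (log2 -0.21, adjusted p = 0.0577) and with offsets by genomic span (-0.11, adjusted p = 0.341). Ndufa10l1, listed as a gene like Ndufa10, had 0 counts in all 12 libraries. Ndufa10 itself was 1.27-fold higher in males, and how reads that fit both were counted is not known.

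Complex II, the succinate dehydrogenase, is encoded wholly in the nucleus and also serves the tricarboxylic acid cycle. Its median log2 fold change was -0.25, with 2 of 4 members called. That was the smallest median of the 5 complexes, but with offsets fitted on the genomic span of genes it was -0.26, larger than those of complex IV (-0.24) and complex V (-0.155). Whether complexes differ from each other was not tested. Sdhb, the iron-sulfur subunit, had female levels of 152.5 to 204.1 CPM (median 184) and male levels of 220 to 239 CPM (median 234), 1.28-fold higher (log2 -0.35, SE 0.07, adjusted p = 0.000702). Sdhc, a membrane anchor, lay at 120 to 153 CPM among females and at 156 to 190 CPM among males (log2 -0.38, SE 0.07, adjusted p = 0.000595). Neither overlapped between the sexes.

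The flavoprotein Sdha and the second anchor Sdhd were not called. Sdha spanned 310 to 334 CPM in the 6 females and 283 to 418 CPM in the 6 males, the lowest value of all 12 being male 4, and the other 5 males lay above every female (log2 -0.15, SE 0.08, adjusted p = 0.156). Sdhd had female levels of 153 to 180 CPM and male levels of 165 to 192 CPM (log2 -0.14, SE 0.06, adjusted p = 0.0632). Without male 4 both were called, Sdha at -0.20 (adjusted p = 0.0201) and Sdhd at -0.16 (0.035), so that 4 of 4 members were higher in males. Without male 4 and female 12 together 3 of 4 were called, Sdhd not among them. Sdhd was also called without female 9 (-0.17, adjusted p = 0.0299) and with DESeq2.

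Complex III, the cytochrome bc1 complex, had 6 of 7 members called higher in males (median log2 fold change -0.42). Uqcrq, a small subunit next to cytochrome b, showed the largest difference of any member. Its levels were 124.9, 132.1 and 149.5 CPM (lowest, median, highest) in females and 195.9, 206.7 and 229.3 CPM in males. The gap between the highest female and the lowest male was wider than the range within either sex, and the log2 fold change was -0.64 (SE 0.06, adjusted p = 1.53e-06), 1.56-fold. The Rieske iron-sulfur protein gene Uqcrfs1 lay at 148.5 to 166.8 CPM among females and at 198 to 230 CPM among males (1.35-fold, adjusted p = 3.32e-05). The hinge protein gene Uqcrh was 1.34-fold higher, and Uqcr, now named Uqcr11, 1.37-fold (adjusted p = 0.000107 and 1.46e-05). These 3 did not overlap between the sexes either.

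The pair of large core proteins of complex III did not both pass the test. Uqcrc1 was 1.24-fold higher in males (161.3 to 186.6 CPM in females and 196.8 to 227.5 CPM in males, adjusted p = 0.000791). Uqcrc2 spanned 250 to 290 CPM in the 6 females (median 267) and 213 to 288 CPM in the 6 males (median 255). It was the one tested member with a higher female mean, with a log2 fold change of 0.05 (SE 0.07, adjusted p = 0.603) and overlapping sexes, male 4 again being the lowest animal. Without male 4 the value was 0.01.

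**Figure D3:**
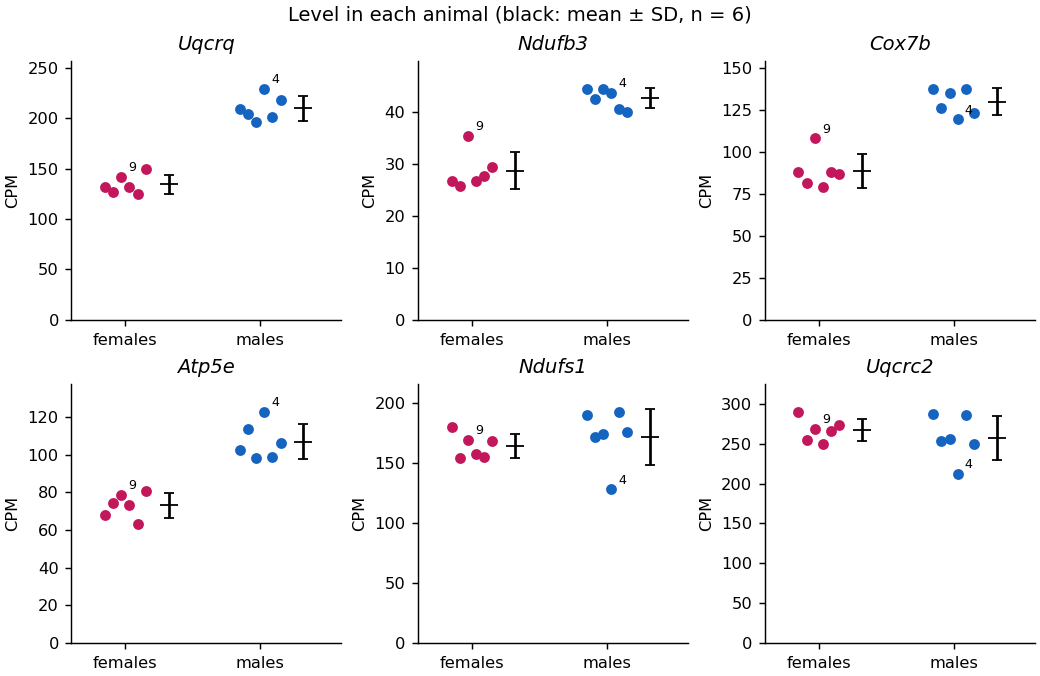
CPM (y axes, from 0) of 6 members in each animal, with mean ± SD over 6 animals per sex in black and male 4 and female 9 marked. Uqcrq, Ndufb3, Cox7b and Atp5e do not overlap between the sexes, whereas Ndufs1 and Uqcrc2 do and have male 4 as their lowest animal.

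Complex IV, cytochrome c oxidase, had 9 of 10 tested members called higher in males (median log2 fold change -0.42), and the same 9 did not overlap between the sexes. Its nuclear subunits surround a mitochondrially encoded core. Cox7b had female levels of 79.0 to 108.1 CPM (median 87.3) and male levels of 119.3 to 137.5 CPM (median 130.6), 1.47-fold higher (log2 -0.55, SE 0.07, adjusted p = 3.71e-05), with female 9 above the other females. Cox6a1, the isoform that liver uses, lay at 121 to 144 CPM among females and at 176.1 to 212.5 CPM among males, 1.45-fold higher (adjusted p = 9.67e-06). Cox7c, a small membrane subunit, had a narrow spread in males, from 187 to 197 CPM, against 130 to 146 CPM in females (1.385-fold, adjusted p = 3.98e-06).

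Cox4i1, the main isoform of the subunit through which ATP inhibits the enzyme, was 1.29-fold higher in males (215 ± 9.82 and 278 ± 12.3 CPM in females and males, SD, n = 6 each; edgeR adjusted p = 9.25e-05). Ndufa4 was 1.35-fold higher (187 ± 10.7 and 251 ± 17.5 CPM; edgeR adjusted p = 7.78e-05, n = 6 each). Cox6c was the tested member that was not called, at 123 to 132 CPM in females and 120 to 143 CPM in males (log2 -0.07, SE 0.05, adjusted p = 0.277). In 5 males it lay above every female, and male 6, at 120 CPM, was the lowest animal.

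The isoforms of complex IV known from other tissues were near the detection limit. Over 6 libraries per sex, Cox4i2, the isoform of lung, had 15 counts in females and 18 in males, the muscle isoforms Cox6a2 and Cox8b had 2 and 15 and 6 and 3, and the testis isoforms Cox6b2 and Cox8c had 7 and 18 and 0 and 1. These 5, and Cox6c1, now listed as the pseudogene Cox6c-ps1 with 0 counts throughout, had too few reads to test in the reported fit. With no filter on low counts 10 members of complex IV were called higher in males, where the reported fit called 9. Cox6c was called in no alternative, so the added call fell on a row near the detection limit. Muscle markers were as low: 7 genes, among them Ckm and Acta1, summed to between 0.350 and 1.25 CPM in every library, and Myh4 had 0 counts.

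Complex V, the ATP synthase, had 12 of 14 members called higher in males (median log2 fold change -0.32). The F1 head with its central stalk, which makes ATP, gave 4 of 5 members. The peripheral stalk that holds the head gave 3 of 4, and the c ring and membrane part gave 5 of 5. With offsets by genomic span these counts were 3, 2 and 3. Within the head and central stalk the small epsilon and delta subunits differed most. Atp5e, the epsilon subunit, spanned 63.2 to 80.8 CPM in the 6 females (median 73.7) and 98.5 to 123 CPM in the 6 males (median 104), 1.47-fold higher (log2 -0.55, SE 0.07, adjusted p = 3.61e-05) with no overlap. Atp5d, the delta subunit, had female levels of 79.1 to 87.5 CPM and male levels of 105 to 118 CPM, 1.29-fold higher (adjusted p = 4.21e-05), also with no overlap.

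The larger alpha, beta and gamma subunits had the smallest log2 fold changes of the head and central stalk. Atp5b, the catalytic beta subunit, had the most reads of any member, at 1373, 1438 and 1534 CPM (lowest, median, highest) in females and 1473, 1680 and 1779 CPM in males, and male 4 alone lay within the female range. Its call (log2 -0.20, SE 0.07, adjusted p = 0.0245) was lost when female 8, female 10, male 1, male 2 or male 5 was left out, with log2 fold changes from -0.19 to -0.18 and adjusted p from 0.0518 to 0.0643. Atp5c1, the gamma subunit, was called at -0.17 (adjusted p = 0.0223) and not without male 5 (-0.15, adjusted p = 0.0562), the animal without which 2 of the 5 head members were called. Both calls were also lost with library totals alone, and that of Atp5c1 with upper quartile scaling. Atp5a1, the alpha subunit, at 805 ± 32.8 CPM in females and 879 ± 57.3 CPM in males (SD, n = 6 each), was not called (edgeR adjusted p = 0.129). In the stalk, Atp5f1, the b subunit, was not called either (log2 -0.13, SE 0.06, adjusted p = 0.0943). Without male 4, which was the lowest male for both, Atp5a1 was called at -0.15 (adjusted p = 0.0446) and Atp5f1 at -0.15 (0.0363).

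The c ring, which turns with the proton flow, is built from 1 protein made by 3 genes, and all 3 were called higher in males. Atp5g1 lay at 74.6 to 87.9 CPM among females and at 95.8 to 104 CPM among males (log2 -0.36, SE 0.05, adjusted p = 4.96e-05). Atp5g2 and Atp5g3 differed by -0.36 (adjusted p = 0.000166) and -0.32 (0.00101). With offsets by genomic span the Atp5g3 call was lost (-0.10, adjusted p = 0.288). These genes code for closely related products, so how reads were divided between them is uncertain. Atp5i, the e subunit of the membrane part, was 1.29-fold higher (adjusted p = 0.00101).

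Of the 3 rows that are no subunits, Atp5sl was 1.28-fold higher in males (22.3 ± 1.73 and 28.4 ± 0.547 CPM, SD, n = 6 each; edgeR adjusted p = 0.000286). Cox7a2l, at 59.65 ± 3.44 CPM in females and 65.3 ± 5.12 CPM in males, was not called (edgeR adjusted p = 0.102). Atp5s, with 3.46 to 4.74 CPM in females and 4.12 to 6.46 CPM in males, was not called (adjusted p = 0.0972), and was without male 4 (log2 -0.35, adjusted p = 0.0404).

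Subunits and partners of the chain outside the symbol rule went the same way, beside 22.7% of all 9943 tested genes called higher in males. All 5 that were tested were called higher in males: the cytochrome c1 gene Cyc1 (1.41-fold, adjusted p = 2.30e-05), the cytochrome c gene Cycs (1.47-fold, 0.000535), the acyl carrier subunit gene Ndufab1 (1.19-fold), Usmg5, a small ATP synthase subunit gene (1.34-fold), and Atpif1, an inhibitor of ATP synthase (1.34-fold). With offsets by genomic span 4 of the 5 were called, against 19.96% of all genes tested that way. Atpif1 was then at -0.225 (adjusted p = 0.081). Cytochrome c is the mobile carrier between complexes III and IV.

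Difference and read level were related across members, with larger differences at lower levels. Over the 70 tested members the log2 fold change rose toward 0 with log2 mean CPM (Pearson r = 0.38, Spearman rho = 0.36, across genes, which share libraries and are not independent), while over all 9943 tested genes r was -0.09. Ranked by reads, the lowest 23 members (4.79 to 62.5 CPM) had a median of -0.41, the next 23 one of -0.37 and the highest 24 (139 to 1547 CPM) one of -0.32. By complex, r was 0.72 in complex V (14 members), 0.44 in complex I (32 members) and -0.02 in complex IV (10 members). CPM is not adjusted for transcript length, so a low level can stand for a short transcript, and transcript lengths were not used here.

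**Figure D4:**
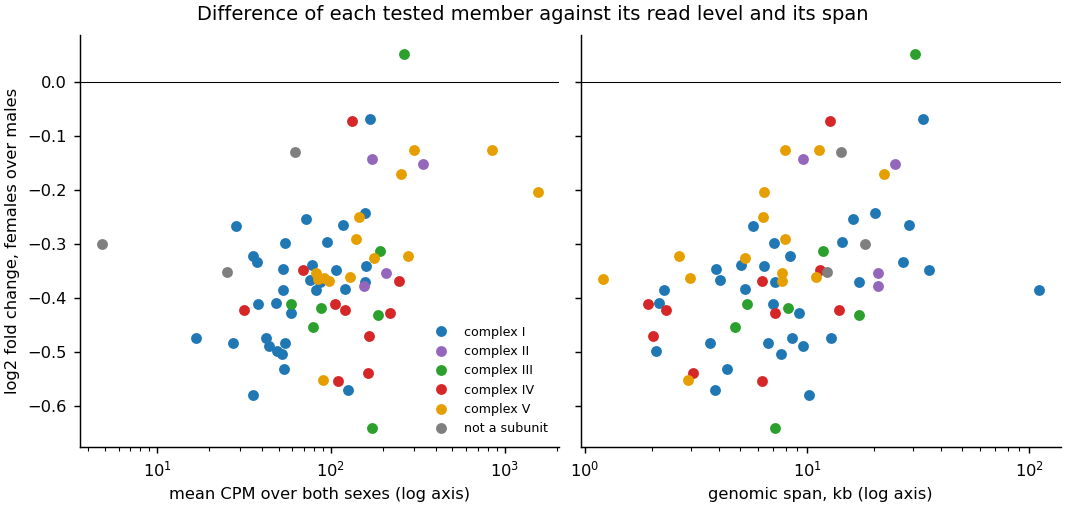
Log2 fold change of females over males (y axis) of each tested member against its mean CPM (left) and the genomic span of its gene (right), both on log axes, coloured by complex. Members with more reads or longer genes lie nearer to 0 on the whole (r = 0.38 and 0.43 over 70 members), with Atp5a1, Atp5b and Uqcrc2 among them.

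The genomic span of the gene moved with the difference as well, and did so over the whole transcriptome. Over the 70 members r with log2 span was 0.43 (rho 0.43), and over the 9680 tested genes with a span in the RefSeq table it was 0.21 (rho 0.35). Other tested genes with a span of up to 5 kb had a median log2 fold change of -0.24, and 44.2% of them were called higher in males; those over 50 kb had a median of 0.17, and 11.5% were called so. The members are mostly short genes, 44 of 70 with a span of up to 10 kb. In each class of span their median was lower than that of the other genes: -0.42 over 17 members of up to 5 kb, -0.37 over 27 of 5 to 10 kb, -0.35 over 15 of 10 to 20 kb (others -0.06) and -0.25 over 10 of 20 to 50 kb (others 0.04). Ndufs4 was the one member above 50 kb, at -0.39.

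With offsets fitted per library on genomic span, an alternative chosen after the data were seen, 53 of the 70 members were called higher in males and 0 in females, among 9680 genes of which 19.96% were called higher in males. The median over members was -0.24, and complex V, with 8 of 14 members called and a median of -0.155, had the smallest. Uqcrq kept a log2 fold change of -0.51 (adjusted p = 7.58e-06) and Ndufb3 one of -0.48, while Atp5b, at -0.06, and Atp5i, at -0.07, were no longer called (adjusted p = 0.547 and 0.439). The other members that lost the call were Atp5g3, Atp5o, Ndufa5, Ndufb2, Ndufb11 and Ndufs5.

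**Figure D5:**
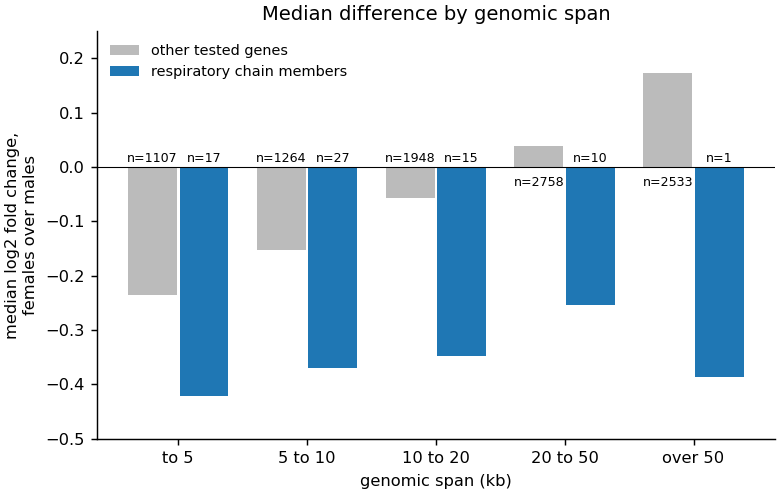
Median log2 fold change of females over males (y axis) in classes of genomic span (x axis, kb), for the tested members (blue) and all other tested genes with a span (grey), with the number of genes beside each bar. The grey bars go from -0.24 to 0.17 with span, and the blue bars are lower than the grey ones in all 5 classes, of which the last holds 1 member.

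Between libraries the same contrast separated the sexes. Short other genes (up to 5 kb) minus long ones (over 50 kb), as median deviations of log2 CPM, lay between -0.235 and -0.14 in the females, between 0.06 and 0.34 in the males. Female 9 was the female nearest to the males and male 5 the male nearest to the females, and male 4 was the highest. The 20 most abundant genes took 37.4% to 41.5% of counts in females and 35.2% to 37.6% in males, Alb, the albumin gene, alone 17.8% to 23.1% and 11.6% to 17.8%. With those 20 genes left out of the fit, or with any of the 3 other scalings, 59 to 61 members were called higher in males. How far transcript length or RNA quality takes part in the difference was not tested.

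Male 4 stood apart in the acute phase genes, with Orm1 at 9559 CPM where the other males had 1359 to 1599. Of 14 tested acute phase genes 7 were called higher in males and 1 in females. The count in males was 6 without male 4, and 4 without female 7 or female 8. Male 4 was also the lowest male for Ndufs1, Sdha, Uqcrc2, Atp5a1, Atp5b and Atp5c1, and the highest for Uqcrq, Atp5e and Ndufb7. Its contrast of short minus long other genes, 0.34, was the highest of all animals as well. Whether its member values go with either trait was not tested. Markers of other liver cell types were measured as well. Over all 9943 tested genes 22.7% were called higher in males and 20.5% in females, to be set beside these counts. Of 8 Kupffer cell markers 2 were called higher in females and 0 in males. Their summed level was 157 to 238 CPM in females and 95.5 to 411 CPM in males. In none of the 8 did more than 1 male lie above every female. Of 3 sinusoidal endothelial markers 2 were called higher in females and 0 in males (70.8 to 88.6 and 26.6 to 72.8 CPM). Of 8 stellate markers 2 were called toward females and 1 toward males (329 to 425 and 290 to 429 CPM). Of 3 bile duct markers none was called by edgeR (5.42 to 10.5 and 5.74 to 13.6 CPM), T and B cell markers, too low to test, summed to 0.903 to 1.39 and 0.724 to 2.36 CPM, and of 3 red blood cell markers 2 were higher in males (298 to 707 and 515 to 1257 CPM). The 8 hepatocyte markers, 3 called higher in males and 2 in females, were present in every library. They summed to 228900 to 305100 CPM in females and 186100 to 247700 CPM in males. Alb had the largest share of that sum, with means of 205700 CPM in females and 161900 CPM in males. Alb and Hnf4a were the 2 called higher in females, and Ttr, Ass1 and Pck1 the 3 called higher in males. The part of all these markers in the differences was not tested.

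Genes that build, supply and control the chain were counted in the same way from lists. Each list is to be set beside all 9943 tested genes, of which 22.7% were called higher in males and 20.5% in females. Of 25 tested assembly factors, which join subunits and insert their cofactors, 10 were called higher in males and 1 in females (their median was -0.16 on the log2 scale). Ccdc56, a factor of complex IV, was 1.485-fold, the copper chaperone gene Cox17 1.29-fold and Cox16 1.26-fold higher in males, and Tmem70, which helps assemble complex V, was 1.15-fold higher in females (adjusted p = 3.32e-05, 0.00339, 0.00161 and 0.0170). Without female 10, male 1 or male 3 in turn, 2 assembly factors were higher in females. With offsets by genomic span 7 were higher in males and 2 in females, and Cox17 was not called (-0.21, adjusted p = 0.0593).

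Of 21 tested genes of electron entry and ubiquinone, 8 were higher in males and 3 in females (5 and 3 without female 10 or male 1). Dhodh, which feeds electrons from pyrimidine synthesis, was 1.53-fold higher in males (adjusted p = 7.23e-05), and Etfb, a subunit of the flavoprotein that collects electrons from fatty acid oxidation, 1.285-fold (9.43e-05). Those higher in females were Coq10a, a ubiquinone binding protein gene (1.765-fold, adjusted p = 9.10e-05), Gpd2, the mitochondrial glycerol phosphate dehydrogenase gene (1.55-fold, 0.00896), and Cabc1, a kinase-like gene of ubiquinone synthesis (1.31-fold, 0.00191). With offsets by genomic span Gpd2 was not called (log2 0.44, adjusted p = 0.0534), which left 2 higher in females.

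Of 30 tested genes of the mitochondrial envelope, import and carriers, 16 were called higher in males and 1 was called higher in females, with a median of -0.20. The count in males was 10 with offsets by genomic span, at lowest 12 over the other scalings and 13 without female 13. The small import chaperone genes Timm8a1 and Timm13 were 1.455-fold and 1.42-fold and the channel subunit gene Timm17b 1.365-fold higher (adjusted p = 5.91e-05, 0.000217 and 1.00e-05). The gene higher in females was Cs, the citrate synthase gene of the tricarboxylic acid cycle (log2 0.185, adjusted p = 0.0389), a call that did not hold when female 7, 8 or 9 or male 2, 3, 4 or 6 was left out (log2 0.16 to 0.18, adjusted p from 0.0540 to 0.0945). The Cs call was also lost with offsets by genomic span (adjusted p = 0.0647), with library totals alone and with no filter on low counts. Phb2 of the same list was not called in the reported fit (log2 0.175, edgeR adjusted p = 0.0529). It was called higher in females with offsets by genomic span (0.35, adjusted p = 0.000681), and also with library totals, upper quartile scaling and DESeq2. With Cs gone and no other gene called, the count in females was 0 without female 8, female 9, male 3 or male 6, and it was 2 without female 12 or male 5.

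Of 22 tested regulators of respiratory gene expression and mitochondrial DNA, 9 were called higher in males and 3 were called higher in females, with a median of -0.105. Gabpb1, the partner of the ETS factor Gabpa in NRF2, was 1.77-fold (2.175 ± 0.228 and 3.84 ± 0.497 CPM, SD, n = 6 each; edgeR adjusted p = 0.000183), Peo1, the mitochondrial DNA helicase gene, 1.745-fold (edgeR adjusted p = 1.65e-06), and Ssbp1, the mitochondrial single-strand binding protein gene, 1.40-fold higher in males (adjusted p = 0.000375). Esrra, the estrogen-related receptor alpha gene, differed 1.34-fold in the same direction (adjusted p = 0.00115). The coactivator gene Ppargc1a, at 1.06 ± 0.464 and 1.20 ± 0.620 CPM, and the factor genes Nrf1 and Gabpa were not called (edgeR adjusted p = 0.829, 0.173 and 0.178, n = 6 each). Higher in females were Polg2, Sp1 and Pprc1 (1.33-fold, 1.24-fold and 1.31-fold), the last a call (adjusted p = 0.0449) that did not hold when female 7, 8, 9 or 10 or male 1, 3, 4 or 5 was left out (log2 0.30 to 0.39, adjusted p from 0.0636 to 0.0962).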

How the data were processed

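Liver RNA from 12 rats, 6 females and 6 males, had been sequenced as 1 library per animal. The deposited values are raw counts of reads, not normalized by the authors, for 16478 genes in each library. Rat build rn4, Bowtie2 2.0.2 and DESeq are named per the submitters' processing notes. Which program counted, with which annotation and strand setting, is not given in the sources used here. The deposited counts hold separate rows for ambiguous reads and for reads without a unique alignment. How far overlapping or near-identical genes lost reads to those rows was not examined.

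Rows that name no gene (27.1% to 31.7% of a library's counts) were left out. Totals over genes ran from 6763879 to 29232871, at which 3 counts equal 0.103 to 0.444 CPM (counts scaled to a common library size). Counts were fitted over all genes with edgeR 4.0.16 in R 4.3.3: filterByExpr by sex (minimum count 10, minimum total 15), TMM factors and the robust quasi-likelihood F test, with Benjamini-Hochberg adjustment over the 9943 genes tested. A call is an adjusted p under 0.05. Standard errors (SE) were derived from F as |log2 fold change| over its root. CPM was taken on TMM-scaled totals. The test was also run on simulated counts with the same spread for every gene, few changed genes and no relation with genomic span. Those counts were simpler than these data, so that run cannot show how many of the calls here are right. All 30 pairs of libraries of 1 sex differed by more than counting error (chi-square per degree of freedom of 6.02 or more).

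Members and gene lists were chosen with earlier results of these data known. Members named with full values were, per complex, up to 4 called with the largest difference, the one with most reads and all that were not called. From each further list up to 3 called genes in each direction could be named. Members whose calls changed with the animals used or with span offsets, the smallest called differences of complex I, Uqcrc1, Ndufa10, Atp5g2, Atp5g3, Orm1, Phb2, Ndufab1, Usmg5, Atpif1 and the regulators Esrra, Ppargc1a, Nrf1 and Gabpa were named after their values were seen. Names, genomic spans and promoters came from RefSeq tables of assembly GRCr8, which differs from the files' build; all 77 members matched by symbol or synonym, and 65 had a promoter entry. Transcript and coding lengths were not used here, so rankings and relations by CPM compare reads between genes and not amounts of transcript. The planned offsets by coding length and levels per kb of coding length gave way to genomic span and CPM. The alternatives were other scalings, filters and tools (DESeq2 1.42.0, limma-voom in limma 3.58.1), each animal left out, male 4 and female 12 left out together, and Ndufa4 counted in complex I. Offsets by genomic span were added after the data were seen.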

Additional observations from a re-analysis of the deposited data

Results flagged for a closer look

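In 10 of 140 groups of 6 animals, 1 animal lay apart from the other 5 of its sex by Dixon's test at the 95% level, in CPM of a tested member; chance flags about 1 in 20 groups. In male 4, Ndufs1 stood at 127.9 CPM (other males 171.8 to 192.5), Atp5c1 at 242.6 (268.5 to 278.9), Ndufa9 at 120.3 (127.9 to 131.1) and Cox8a at 148.4 (133.0 to 138.4). In female 9, the library with the fewest counts, Cox7b stood at 108.1 CPM (other females 78.98 to 88.01), Ndufa5 at 39.77 (28.94 to 30.77) and Atp5g1 at 87.85 (74.62 to 79.32). In female 12, Ndufv3 stood at 41.14 CPM (50.09 to 54.06) and Atp5d at 79.06 (85.16 to 87.51). In male 3, Atp5g1 stood at 95.81 CPM (102.7 to 103.9).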

How the results depend on the processing

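Of the 61 members called higher in males, 52 kept the call under each of the 23 alternatives and 58 under each but the offsets from genomic span. Leaving out single animals, 59 to 66 members were called higher in males, 66 of them without male 4, and 0 in females; by complex the counts were 31 in complex I, 2 to 4 in complex II (4 without male 4), 6 in complex III, 9 in complex IV and 10 to 14 in complex V. Over the other scalings 59 to 61 were called. With span offsets the median log2 fold change was -0.24 over all members, -0.262 in complex I, -0.279 in complex III, -0.244 in complex IV and -0.155 in complex V; the offsets by construction take out the relation with span that other genes show. Complex II, at -0.259, did not shrink, so the order of the complexes turned and complex V had the smallest median. No paired analysis was possible because the animal numbers (1 to 6 in males, 7 to 13 in females) are shared by no 2 groups, and a batch that followed the numbers cannot be told apart from sex. The offsets by coding length were not run. Libraries of 6763879 counts and more leave the 7 untested members near or below the limit of 3 counts.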
